A study of Homo sapiens with 40 samples.

Results

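Immediate early genes are the first genes a cell transcribes after serum, a growth factor or stress reaches it, and 36 of them, together with the feedback inhibitors and secreted proteins of the growth factor response, were followed here. They were chosen by name, with earlier results of these data known, as the entries of the deposited expression table whose Ensembl gene identifiers map to the 36 listed symbols. All 36 were found, each in 1 entry, among the 62263 genes of the table, and all 36 passed the filter on low counts that left 16735 genes for testing. The RNA came from BEAS-2B, an immortalised human bronchial epithelial cell line. One line carried a constitutive control hairpin RNA (shControl) and the other a constitutive hairpin against IGF2BP3 (shIGF2BP3), an RNA-binding protein, according to the growth protocol. The sample titles write siC and siIGF2BP3 instead, and the protocol was followed in speaking of lines. Both were grown in RPMI with 10% serum, starved overnight in 2% and then left unstimulated or given the cytokine IL-13 at 100 ng/ml and harvested 24 h later. From each condition, total RNA (input) and RNA bound to polyribosomes (polysome) were sequenced, the comparison known as Frac-seq, which gave 8 groups of 5 libraries. Each hairpin was represented by a single line, so its effect and anything else that set the 2 lines apart cannot be told apart. The labels number the replicates but do not say that they came from separate cultures, so the p-values measure only the spread between these libraries, which may be technical.

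In the textbook account, growth factor receptors activate RAS and the kinases RAF, MEK and ERK, and ERK phosphorylates ELK1, which binds with serum response factor (SRF) at CArG boxes in the promoters of FOS and EGR1. SRF also works with MRTF, a cofactor released when actin polymerises, while YAP with TEAD factors drives the secreted matricellular proteins CCN1 and CCN2. The induced mRNAs are short-lived, since AU-rich elements and proteins such as ZFP36 direct their decay. Many of the induced proteins then switch the pathway off: DUSP phosphatases inactivate ERK, SPRY proteins block RAS activation, and ERRFI1 inhibits the EGF receptor. In airway epithelium this programme is known from wound repair, stretch and EGF receptor signalling.

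The promoter stretches below show matches to the motifs bound by SRF and by TEAD factors. They are printed as examples that hold a match, from EGR1, EGR2 and CCN2, which differed widely between libraries, and from SRF. FOSB and NR4A1 stood further above the next input library in unstimulated control replicate 1 (33.6 and 22.8 times on CPM plus 1). Their windows held neither motif. A link between the motifs and the levels was not tested. The sequences are RefSeq's for build GRCh38.p14, on the strand of the gene, and the capitals mark the matched motif, a CArG box in the first 3 and the TEAD motif GGAATG in the last. The EGR1 stretch is chr5:138465329-138465478 (plus strand), that of SRF chr6:43171119-43171268 (plus strand), that of EGR2 chr10:62816367-62816516 (minus strand) and that of CCN2 chr6:131951373-131951572 (minus strand).
EGR1: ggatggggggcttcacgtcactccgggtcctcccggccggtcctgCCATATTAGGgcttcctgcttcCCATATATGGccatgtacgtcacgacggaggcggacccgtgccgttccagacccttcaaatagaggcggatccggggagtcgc
SRF: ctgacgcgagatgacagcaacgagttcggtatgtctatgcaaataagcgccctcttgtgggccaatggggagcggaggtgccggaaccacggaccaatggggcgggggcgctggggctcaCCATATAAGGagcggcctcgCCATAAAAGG
EGR2: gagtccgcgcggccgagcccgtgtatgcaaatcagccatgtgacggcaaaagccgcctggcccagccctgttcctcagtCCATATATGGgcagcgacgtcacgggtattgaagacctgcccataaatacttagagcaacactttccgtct
CCN2: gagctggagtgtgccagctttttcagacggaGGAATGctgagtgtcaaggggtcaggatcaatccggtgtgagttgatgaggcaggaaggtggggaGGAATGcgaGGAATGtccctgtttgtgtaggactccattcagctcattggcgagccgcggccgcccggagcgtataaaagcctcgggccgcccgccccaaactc
EGR1 and SRF each showed 2 CArG boxes, EGR2 showed 1 and CCN2 showed 3 copies of GGAATG. The EGR2 box stood in only 1 of the windows of that gene. Promoter windows from 250 bases before to 50 after a start were at hand for 27 of the 36 genes, in 35 windows, and both strands were searched. The CArG box stood in 8.57% of these windows, in the promoters of EGR1, EGR2 and SRF, against 1.29% of 35116 promoters of the same length. The FOS window held none, and boxes more than 250 bases before a start were not searched. The cyclic AMP element TGACGTCA stood in 8.57% of the genes' windows (DUSP1, JUND and MAFF) against 1.85% of all, and its first 5 bases TGACG in 48.6% against 24.6%. The EGR motif GCGGGGGCG stood in 14.3% of the windows, in the promoters of BTG2, KLF2, KLF6, SPRY2 and SRF, against 5.07% of all. The SP1 motif GGGCGG, which it can overlap, stood in 74.3% against 45.0%. The TEAD motif stood in 14.3% against 14.0%, the TATAAA box in 20.0% against 11.5%, and the AP-1 motif TGANTCA, in FOSL2 alone, in 2.86% against 7.71%. These matches describe the letters of the windows, not binding.

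Estimated counts summed to between 14044352 and 40441061 per input library (median 26189353) and between 1816848 and 34082191 per polysome library (median 19124845), and 3 polysome libraries of the knockdown line lay under 5000000. Of the epithelial markers, KRT8 had a median of 1244 CPM, counts scaled to library size, in input libraries and KRT18 one of 650.2, while KRT5, KRT14, TP63, EPCAM and CDH1 stayed at or below 4.18 CPM in every library, and the mesenchymal marker VIM had a median of 1894. The simple epithelial keratins were thus present and the defining basal and junctional markers were nearly absent. Medians of the targeted gene, IGF2BP3, in input were 31.3 CPM (unstimulated) and 32.3 CPM (IL-13) in the control line and 25.5 and 25.8 CPM in the line labelled knockdown. In polysome RNA they were 7.47 and 12.3 CPM in the control line and 8.28 and 8.69 CPM in the knockdown line, so unstimulated the order was the opposite. Libraries of both lines overlapped in each of these 4 settings, so each direction given for the knockdown rests on the labels.

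In TPM, the transcript share that accounts for transcript length, the 36 genes spanned from the most abundant secreted factor to receptors and factors near the limit of detection. CCN1 (ENSG00000142871.18), a matricellular ligand of integrins, had a median of 171 TPM over the 20 input libraries. JUND (ENSG00000130522.6), the AP-1 subunit known for steady expression, followed with 152 TPM. CCN2 (ENSG00000118523.6), the connective tissue growth factor, had 40.2 TPM. These medians set CCN1 and JUND apart from the other 34 genes. The FOS relatives FOSL1 (ENSG00000175592.9) and FOSL2 (ENSG00000075426.12) had 39.5 and 31.8 TPM, and IER3 (ENSG00000137331.12), an early response protein that modulates apoptosis and ERK signalling, had 34.7 TPM. SRF (ENSG00000112658.8), which controls many of the others, had 29.5 TPM. FOS itself, the classical immediate early gene, was low at 1.46 TPM, as were FOSB (0.561 TPM) and the orphan nuclear receptors NR4A1 (1.76 TPM), NR4A2 (0.235 TPM) and NR4A3 (0.307 TPM). The feedback genes DUSP6 (0.289 TPM) and SPRY4 (0.202 TPM) were low as well, and the zinc finger factors EGR2 (0.0716 TPM) and EGR3 (0.0442 TPM) had the lowest medians of the 36. EGR1, the EGR family member that growth factors induce most widely, had 14.8 TPM.

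In 1 replicate the programme stood far above this baseline. Unstimulated control replicate 1, which is 1 input library of 25416354 counts and 1 polysome library of 10509775, had the highest level among the 20 libraries of its fraction for 35 of the 36 genes in input (all but FOSL2) and for 34 in polysome RNA (all but FOSL2 and JUND). Of all 16735 genes tested, 14.6% were highest in that library in input and 12.5% in polysome RNA. It exceeded the next library over 4-fold, on CPM plus 1, for 17 of the 36 genes in input and 19 in polysome RNA, where 62 genes (0.37%) and 61 genes (0.365%) of all did so. No other library was the highest for more than 1 of the 36 genes, and none exceeded the next over 4-fold for any of them. Since the 36 were chosen with earlier results of these data known, these counts are a description and no test. Against the median of the other 19 libraries the median ratio over the 36 genes was 6.05 in input (from 1.11 to 43.7) and 7.73 in polysome RNA (from 1.25 to 50.4). In bulk RNA, more cells that hold an mRNA and more of it per cell cannot be told apart. All labels place both libraries in the unstimulated control group, where they were kept, and results are given with and without them.

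Among the AP-1 genes, which encode the FOS and JUN subunits of that dimeric factor, FOSB (ENSG00000125740.14) stood out most. The 5 unstimulated control input libraries, replicates 1 to 5, read 113, 1.76, 1.41, 1.02 and 1.63 CPM for FOSB, and the 5 polysome libraries 87.8, 0.636, 0.419, 0.225 and 1.00 CPM. Replicate 1 was 33.6 times the next of the 20 input libraries on CPM plus 1, and the other 19 lay between 0.498 and 2.40 CPM. FOS read 52.0 CPM there in input, with the other 19 libraries between 0.605 and 9.18. JUNB read 163.7 CPM (others 16.0 to 32.5), and JUN, the partner of FOS, 255.9 CPM (others 29.8 to 73.3). FOSL1 read 349.9 CPM (others 26.9 to 110.0). JUND was higher by less, at 459 CPM in input against 164 to 287, and in polysome RNA its 142 CPM lay inside the range of the others, 65.9 to 203. FOSL2, at 203 CPM in input (others 94.8 to 245), lay inside the range in both fractions. The related basic zipper genes MAFF (248 CPM in input, others 8.12 to 28.3) and ATF3 (145 CPM, others 13.8 to 28.5), a stress-induced repressor, were both above all other libraries.

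The zinc finger and nuclear receptor genes showed the same library apart. For EGR3 (ENSG00000179388.9) the unstimulated control input libraries read 41.7, 0.448, 0.212, 0.0291 and 0.163 CPM and the polysome libraries 54.5, 0.546, 0, 0.18 and 0 CPM. Only replicate 1 held more than a trace of EGR3 in either fraction. For NR4A1 (ENSG00000123358.20), an orphan receptor induced by many stimuli, the input libraries read 126, 4.24, 3.50, 3.46 and 3.87 CPM and the polysome libraries 149, 2.91, 2.04, 2.39 and 2.79 CPM. All 19 other input libraries lay between 2.32 and 4.59 CPM for NR4A1, so replicate 1 was 22.8 times the next on CPM plus 1. EGR1 (ENSG00000120738.8) read 1010.1, 78.6, 75.0, 27.7 and 32.0 CPM in unstimulated control input, with up to 124 CPM in the other groups. EGR2 read 17.3 CPM against at most 0.617. NR4A2 and NR4A3 were only slightly above the others, at 2.89 CPM (others 0.0712 to 1.37) and 4.75 CPM (others 0.349 to 3.05) in input. The Kruppel-like factors KLF6 (170 CPM, others 61.7 to 102), KLF10 (176 CPM, others 34.0 to 61.1), KLF4 (28.9 CPM, others 1.05 to 8.26) and KLF2 (27.5 CPM, others 2.24 to 11.8) were above all others too, by less than 4-fold. SRF itself read 268 CPM against 72.6 to 148.

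The inhibitors that the pathway induces against itself were high in the same replicate. DUSP5 (ENSG00000138166.6), a nuclear ERK phosphatase, read 461, 39.7, 20.9, 28.2 and 26.0 CPM in the unstimulated control input libraries and 637, 39.5, 29.1, 68.3 and 43.5 CPM in the polysome libraries. DUSP6 (ENSG00000139318.8), the cytoplasmic ERK phosphatase, read 25.7, 0.239, 0.504, 0.524 and 0.652 CPM in input and 42.2, 0.546, 1.83, 1.35 and 0.446 CPM in polysome RNA. For both phosphatases replicate 1 was over 9-fold above the next library of its fraction. SPRY4 (ENSG00000187678.10), a Sprouty inhibitor of RAS activation, read 44.3, 0.418, 1.30, 1.86 and 1.30 CPM in input and 37.8, 1.64, 0, 0.316 and 0.334 CPM in polysome RNA. IER3 read 758, 58.6, 30.7, 54.9 and 26.2 CPM in input and 508, 40.5, 37.8, 76.5 and 39.6 CPM in polysome RNA. Both genes were thus more than 6-fold above the next library in each fraction. DUSP1 (146 CPM in input, others 14.3 to 60.8), DUSP4 (100.4 CPM, others 14.2 to 52.1) and SPRY2 (37.0 CPM, others 6.79 to 15.6) were above the others by smaller factors. ERRFI1, the EGF receptor inhibitor, read 276 CPM against 27.2 to 41.7, and PHLDA1, an early response gene, 165 CPM against 14.6 to 33.8. ZFP36 (ENSG00000128016.7), which binds AU-rich elements and promotes decay, read 44.8 CPM against 12.2 to 25.2, and the antiproliferative gene BTG2 read 56.0 CPM against 17.9 to 41.4. The pseudokinase gene TRIB1 read 19.8 CPM against 1.85 to 5.50, IER2 308 CPM against 28.5 to 55.8, and IER5 153 CPM against 52.2 to 92.4.

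Of the secreted pair, CCN2 read 1610.0, 126, 99.4, 34.4 and 85.7 CPM in the unstimulated control input libraries and 1691.7, 23.2, 44.9, 96.7 and 34.0 CPM in the polysome libraries. Replicate 1 was 12.6 times the next of all input libraries on CPM plus 1, while the other 19 spanned 15.1 to 127 CPM. CCN1 read 1313.5 CPM in input against 116 to 444 and 1386.5 CPM in polysome RNA against 76.1 to 577. The plot of levels in each library shows this separation for all 36 genes.

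**Figure D1:**
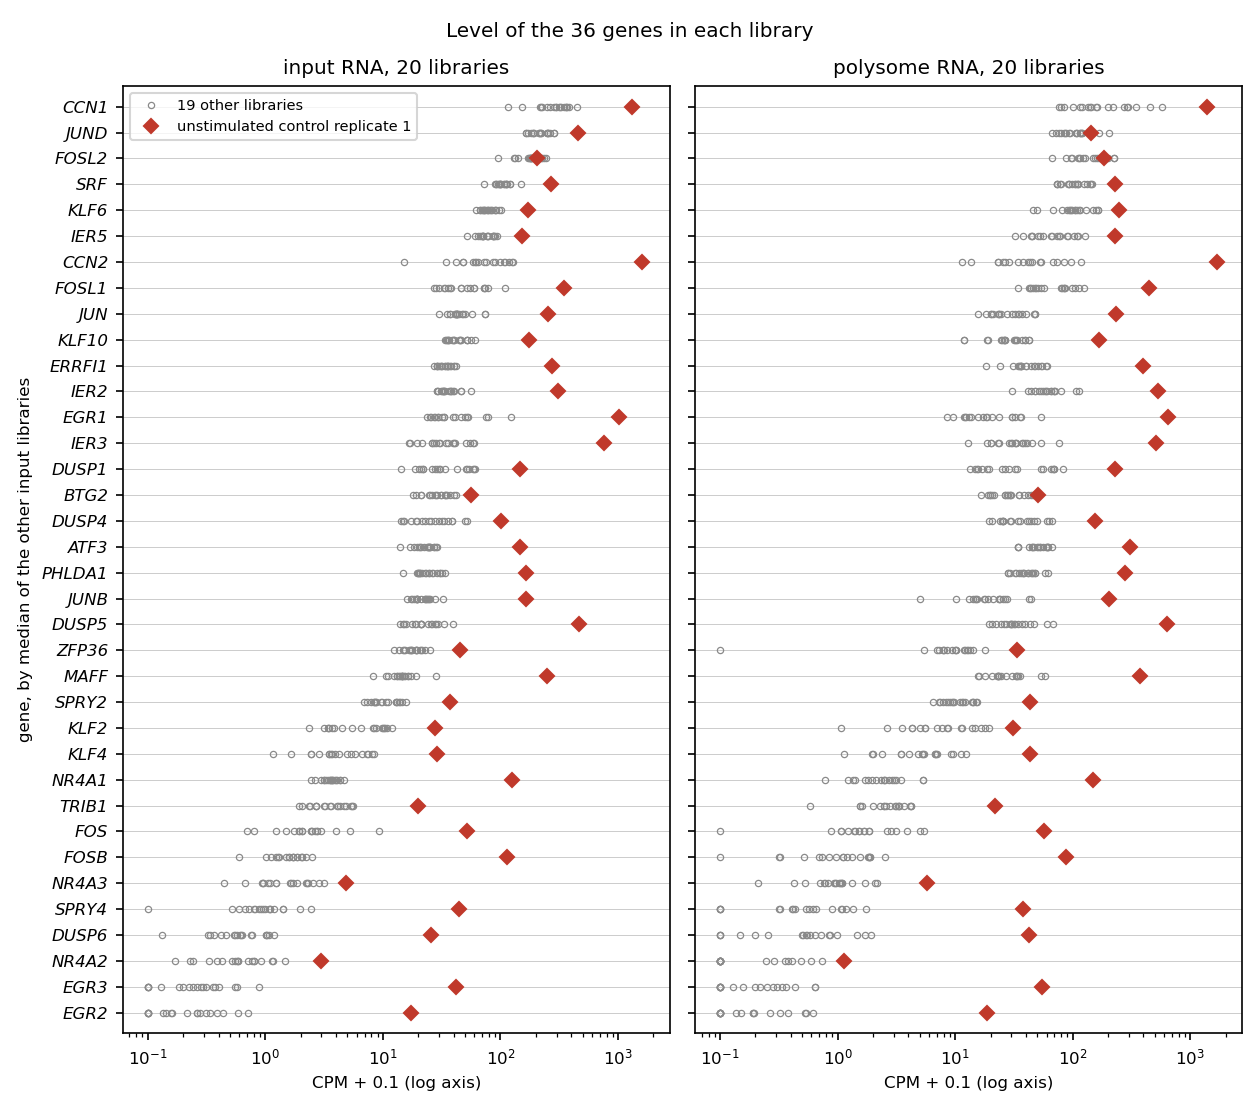
Level of each of the 36 genes in the 20 input libraries (left) and 20 polysome libraries (right), in CPM plus 0.1 on a log axis, with unstimulated control replicate 1 as a red diamond and the 19 other libraries as open circles. The diamond is the rightmost mark for 35 genes in input (not FOSL2) and 34 in polysome RNA (not FOSL2 and JUND).

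Lists of related genes, also chosen with earlier results of these data known, were read in the same replicate to place these levels. Of 24 other primary response genes outside the 36, 20 were highest in it in input, with a median ratio of 2.97 to the other libraries, and PLK3, NFKBIZ and LIF exceeded the next library over 4-fold. LIF, a cytokine, read 93.5 CPM against 7.70 to 17.6, and MYC read 258 CPM against 39.5 to 71.2. In polysome RNA 20 of the 24 were highest in it as well, with a median ratio of 3.40. Of 30 genes of the EGF receptor, RAS and ERK pathway, 9 were highest in it in input (median ratio 1.14), none over 4-fold. Among them the ligand genes AREG (7.25 CPM against 0.0598 to 1.57) and HBEGF (68.5 CPM against 18.7 to 45.3) were above all others in input. The receptor gene ERBB2 (84.4 CPM against 115.8 to 250.1), the RAF kinase gene ARAF (106 CPM against 120.5 to 212.5) and SPRY1 (0 CPM against 0.214 to 1.29) were below all others in input. In polysome RNA this also held for AREG, HBEGF and ARAF, while ERBB2 (88.1 CPM against 65.0 to 399.5) and SPRY1 (0.313 CPM against 0 to 1.26) lay inside the range. Only 1 of 11 MRTF, YAP and TEAD genes was highest in the input library of that replicate (median ratio 0.933). There MRTFA (75.7 CPM against 91.1 to 168.3) and MRTFB (29.9 CPM against 34.4 to 70.7) were below all others. In polysome RNA both lay inside the range, at 57.2 CPM (others 24.4 to 121.0) and 11.2 CPM (others 4.89 to 23.0). Of 14 genes of AU-rich mRNA decay 3 were highest in that input library (median ratio 1.03), and CNOT6 (70.1 CPM against 70.9 to 111.6) and CNOT7 (31.1 CPM against 32.4 to 52.7) were lowest. In polysome RNA CNOT6 (78.0 CPM against 39.0 to 126.9) and CNOT7 (24.1 CPM against 6.07 to 43.5) lay inside the range. The share of all genes that were lowest in this replicate was not counted. The summed markers of fibroblasts (429 CPM, others 297 to 1252), endothelium (2.04 CPM, others 0.174 to 13.1) and epithelium (1513 CPM, others 1209 to 3480) lay inside the range of the other input libraries. Single markers did not all do so. PDGFRB was lowest in that replicate in input (36.4 CPM, median 154.9) and polysome RNA (14.4 CPM, median 53.3). COL1A2 was lowest in input (4.28 CPM, median 22.2) but not in polysome RNA. COL1A1 (388 CPM in input) lay inside the range, and KRT19 (10.5 CPM) was near its lowest value of 9.80. The summed level of 4 immune markers was 46.4 CPM in input of that replicate against 16.2 to 42.3, made up of CD14 (30.6 CPM) and CD68 (15.8 CPM), with PTPRC at 0. In polysome RNA the sum was 59.3 CPM, inside the range of the others (8.15 to 61.5). The part of these marker levels in the levels of the 36 genes was not tested.

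Whether IL-13 changed the genes was asked in each line and fraction, and none of the 36 passed the test. In input, edgeR's quasi-likelihood test called 0 of the 36 in the control line, where 0.0777% of all genes were called, and 0 in the knockdown line (0.0837% of all). In polysome RNA it called 0 in the control line (0.125% of all, 0.0956% higher and 0.0299% lower with IL-13) and 0 in the knockdown line (0.0896% of all). Among the 36, an unadjusted p under 0.05 was reached in input by 19 (control line) and 1 (knockdown line), and in polysome RNA by 23 and 1. Of all 16735 genes, 340 and 169 reached it in input and 858 and 534 in polysome RNA, control line first in each. The Wald test of DESeq2 called CCN2, lower with IL-13, in control polysome RNA (adjusted p = 0.0289, where it called 0.318% of all genes) and none elsewhere, and without that replicate its adjusted p for CCN2 was 1. Members to which DESeq2 gave no adjusted p count here and below as not called, and how many these were was not counted. Its shares of all genes are of those given an adjusted p. The fitted median over the 36 genes in the control line was -1.18 (log2) in input, with 35 below 0, and -1.37 in polysome RNA, with 34 below 0, while the median of all genes was -0.003 in both. Without unstimulated control replicate 1 these medians were -0.04 and 0.0014, with 20 and 18 genes below 0. In the knockdown line, whose group means do not include that replicate, the medians were -0.14 in input and -0.15 in polysome RNA. The replicate does enter the spread of each gene, which was estimated over all 40 libraries. The p-values of every comparison in that fit, also those without the replicate in their groups, rest on this spread. The lowest adjusted p-values in the control line belonged to EGR3, with a log2 difference of -6.19 ± 1.71 (SE, adjusted p = 0.459) in input and -6.26 ± 1.74 (adjusted p = 0.28) in polysome RNA. Without the replicate the input value for EGR3 was -0.94 ± 1.11, that of CCN2 went from -2.67 ± 0.90 to -0.50 ± 0.50, and that of EGR1 from -2.20 ± 0.84 to -0.01 ± 0.46.

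**Figure D2:**
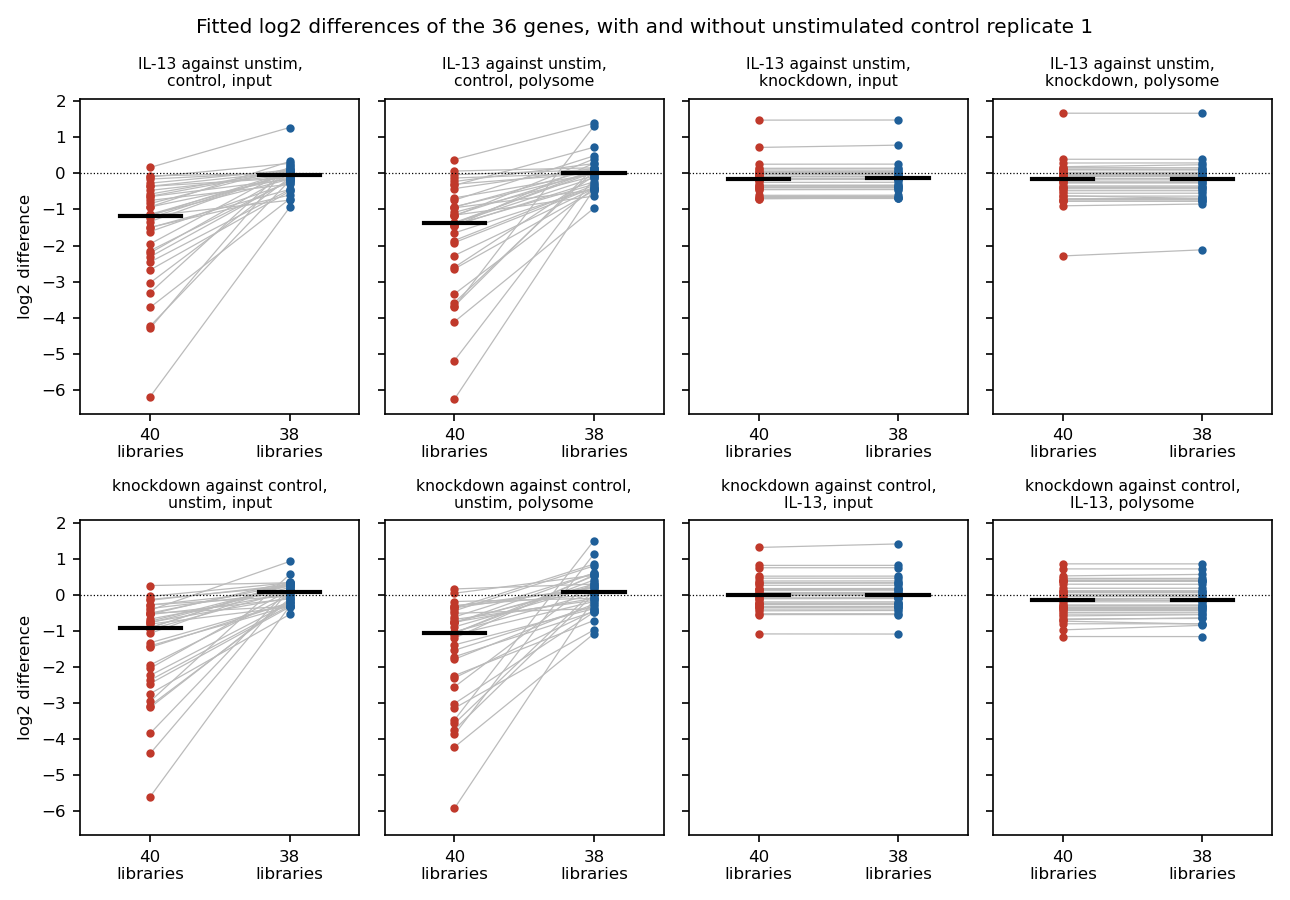
Fitted log2 differences of the 36 genes (points, 1 line per gene, black bar at the median) for IL-13 against unstimulated (top) and knockdown against control (bottom), in the fit of 40 libraries and in the fit of 38 without unstimulated control replicate 1. The 4 panels whose groups include that replicate move from medians between -1.37 and -0.91 to medians between -0.04 and 0.09. Medians of the other 4 lie between -0.16 and -0.01 in both fits.

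KLF2 (ENSG00000127528.6), a Kruppel-like transcription factor known from endothelium and lung development, was the member whose IL-13 libraries were all above the unstimulated ones of the same line and fraction once that replicate was set aside. It is named after its values were seen. The unstimulated control input libraries read 27.5, 3.08, 4.38, 5.41 and 3.34 CPM for KLF2 and those with IL-13 read 11.8, 10.1, 10.0, 8.71 and 8.33 CPM. In the knockdown line the input libraries read 3.60, 3.33, 3.40, 3.76 and 2.24 CPM unstimulated and 9.79, 6.47, 8.09, 10.4 and 10.8 CPM with IL-13. Every input library with IL-13 was above every unstimulated one except control replicate 1. In polysome RNA the control line read 30.9, 4.91, 3.41, 7.57 and 4.24 CPM unstimulated and 11.3, 13.7, 8.45, 17.9 and 14.8 CPM with IL-13. The knockdown line read 5.49, 2.53, 5.42, 4.22 and 0.978 CPM unstimulated and 6.91, 11.2, 8.57, 16.5 and 19.5 CPM with IL-13. Within each line the same order held there, again with replicate 1 as the exception. In the knockdown line 0.586% of all genes had higher groups without overlap in input and 0.335% in polysome RNA, and in the control line without replicate 1 these shares were 0.454% and 0.478%.

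Without that replicate, KLF2 measured 4.05 CPM ± 1.07 (SD, n = 4) unstimulated and 9.79 CPM ± 1.38 (SD, n = 5) with IL-13 in control input. It measured 3.27 CPM ± 0.597 and 9.11 CPM ± 1.81 (SD, n = 5) in knockdown input. With all 40 libraries the log2 differences were 0.16 ± 0.49 (SE) and 1.47 ± 0.50 in input, control line first, and 0.38 ± 0.49 and 1.67 ± 0.52 in polysome RNA, and none was called by edgeR (adjusted p from 0.674 to 1). With 38 libraries edgeR called KLF2 higher with IL-13 in the knockdown line, at 1.48 ± 0.30 in input (adjusted p = 0.0259, where 0.106% of all genes were called) and 1.66 ± 0.31 in polysome RNA (adjusted p = 0.00629, 0.1% of all). In the control line the values were 1.27 ± 0.32 (adjusted p = 0.265) in input and 1.39 ± 0.32 (adjusted p = 0.0728) in polysome RNA. The knockdown polysome comparison holds all 3 libraries under 5000000 counts, unstimulated replicates 1 and 5 and IL-13 replicate 5. Its lowest and highest KLF2 values, 0.978 and 19.5 CPM, came from the replicates 5 (1816848 and 2302952 counts in all) and rest on few counts. DESeq2 on the 38 libraries called KLF2 in all 4 settings, with adjusted p-values in input of 0.00823 (control) and 0.000107 (knockdown), and in polysome RNA of 0.00162 and 1.38e-05. In these fits DESeq2 called 0.117% and 0.133% of all genes in input and 0.378% and 0.226% in polysome RNA. Leaving out 1 further library at a time kept the log2 difference between 1.16 and 1.84 over the 4 settings. The edgeR call in knockdown polysome RNA was then lost only without unstimulated knockdown polysome replicate 2 (adjusted p = 0.055), and that in knockdown input held in 2 of 10 fits (adjusted p from 0.0211 to 0.15). The effect of IL-13 on KLF2 differed between the lines by 0.21 ± 0.43 in input and 0.28 ± 0.44 in polysome RNA without the replicate, which was within the spread (edgeR adjusted p of 1 in both). The plot of KLF2 and FOSL1 by group shows each library.

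Beside KLF2, 2 members had IL-13 groups that did not overlap with the unstimulated ones over all 5 libraries, neither of them called. PHLDA1 in control input read 14.6 to 20.5 CPM with IL-13 and 21.6 to 165 CPM without (log2 -1.50 ± 0.46, edgeR adjusted p = 0.687), where 0.155% of all genes had lower groups without overlap. Without replicate 1 the difference of PHLDA1 was -0.45 ± 0.18. NR4A3, at trace level, read 0.433 to 0.870 CPM with IL-13 and 0.938 to 2.00 CPM without in knockdown polysome RNA (log2 -0.77 ± 0.64, edgeR adjusted p = 1), where 0.185% of all genes did so.

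The knockdown line was compared with the control line in each condition and fraction, and edgeR again called 0 of the 36 in each. Of all genes, 0.012% were called in unstimulated input, 0.0% with IL-13 in input, 0.0299% in unstimulated polysome RNA and 0.0837% with IL-13 in polysome RNA (0.0478% higher and 0.0359% lower in the knockdown line). An unadjusted p under 0.05 was reached by 18, 0, 19 and 1 of the 36 in that order, and by 492, 498, 1233 and 1655 of all genes. The Wald test of DESeq2 called FOS and EGR1, lower in the knockdown line, in unstimulated polysome RNA (adjusted p = 0.0254 and 0.0477, where it called 0.479% of all genes) and none in the other settings. Without unstimulated control replicate 1 its adjusted p was 0.616 for FOS and 0.804 for EGR1, so both calls ended. The unstimulated comparison uses the same control libraries as the IL-13 comparison in the control line. Its median over the 36 genes was -0.91 in input and -1.06 in polysome RNA with all libraries, and 0.09 and 0.07 without unstimulated control replicate 1. With IL-13 the medians were -0.01 in input and -0.13 in polysome RNA. CCN2 went from -2.03 to 0.14 in unstimulated input when that replicate was left out. IER3 in unstimulated polysome RNA did not overlap between the lines, at 20.0 to 36.9 CPM in the knockdown line and 37.8 to 508 CPM in the control line, where 0.305% of all genes had lower groups without overlap. Its log2 difference was -2.24 ± 0.69 (edgeR adjusted p = 0.288), and -0.71 ± 0.32 (adjusted p = 0.543) without replicate 1.

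FOSL1, the FOS-related AP-1 subunit, had higher values in the knockdown line outside replicate 1 and is named for its level. In input its control libraries read 349.9, 26.9, 35.9, 51.5 and 45.8 CPM unstimulated and 29.9, 33.0, 37.3, 38.0 and 28.4 CPM with IL-13. The knockdown libraries read 110.0, 72.6, 46.1, 78.9 and 72.9 CPM unstimulated and 73.1, 59.4, 33.4, 55.1 and 59.4 CPM with IL-13. These groups overlapped, with 1 low knockdown library in each condition. In polysome RNA FOSL1 read 446.7, 43.6, 51.0, 48.2 and 84.8 CPM in unstimulated control and 54.1, 104, 125, 99.3 and 113 CPM in unstimulated knockdown libraries. With IL-13 it read 44.4, 42.5, 47.6, 34.2 and 45.8 CPM in control and 80.8, 86.0, 83.5, 80.1 and 57.2 CPM in knockdown libraries. The polysome groups with IL-13 did not overlap, as for 0.55% of all genes in that direction. The fitted log2 differences with 40 libraries were -0.42 and 0.75 ± 0.52 (SE) in input, unstimulated first, and -0.44 and 0.86 ± 0.52 in polysome RNA, none called by edgeR. With 38 libraries they were 0.92 ± 0.24, 0.75 ± 0.22, 0.80 ± 0.24 and 0.86 ± 0.22 in that order, with edgeR adjusted p-values of 0.343, 0.345, 0.292 and 0.0894. DESeq2 on the 38 libraries called FOSL1 in polysome RNA with IL-13 (adjusted p = 0.0201, where it called 1.12% of all genes) and in none of the other 3 settings. ERRFI1 had unstimulated input groups without overlap once replicate 1 was set aside, at 35.1 to 41.7 CPM in unstimulated knockdown input and 28.5 to 35.0 CPM in control (log2 0.31 ± 0.20), where 1.45% of all genes did so.

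**Figure D3:**
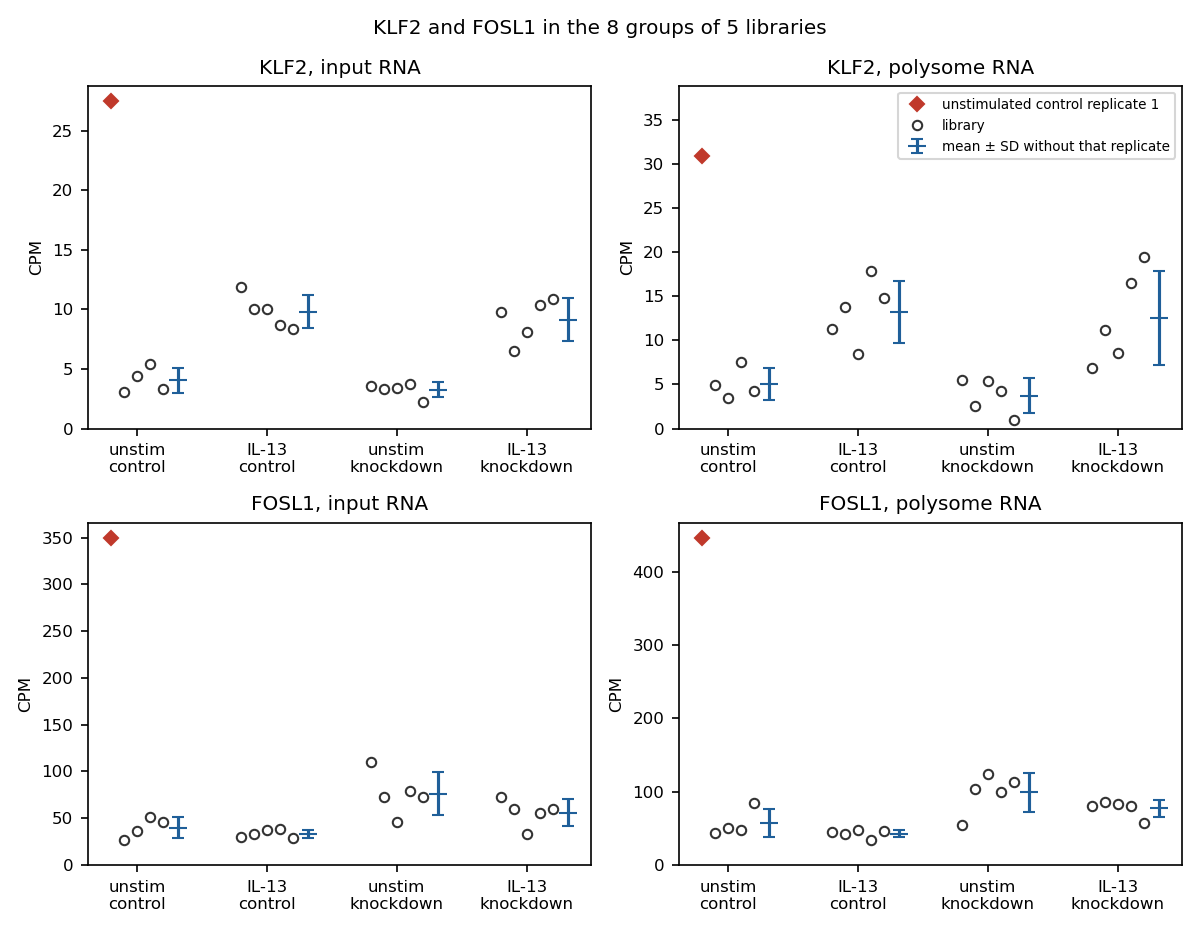
CPM of KLF2 (top) and FOSL1 (bottom) in input (left) and polysome (right) libraries of the 4 conditions, with each library as a circle, unstimulated control replicate 1 as a red diamond and the mean ± SD without it in blue. For KLF2 the IL-13 groups lie above the unstimulated ones in both lines apart from the diamond, and for FOSL1 the knockdown mean is above the control mean in each condition and fraction once the diamond is set aside.

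The interaction tests compared these effects with each other. The effect of IL-13 differed between the lines for 0 of the 36 genes in either fraction by edgeR and by DESeq2, where 0.0% of all genes were called, with 6 members and 151 of all genes in input and 7 members and 560 of all genes in polysome RNA at an unadjusted p under 0.05. The median difference over the 36 genes was 1.18 in input and 1.28 in polysome RNA with all libraries, and -0.06 and -0.09 without unstimulated control replicate 1. Shifts of an effect from input to polysome RNA were called by edgeR and DESeq2 for 0 of the 36 genes, for the knockdown without and with IL-13 (0.0% and 0.00598% of all genes) and for IL-13 in the control and knockdown lines (0.0% of all in both). None of the 36 had an unadjusted p under 0.05 in any of these 4 shifts by edgeR. For DESeq2 the counts of 0 in these interaction tests include any member to which it gave no adjusted p.

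Polysome RNA was compared with input in each condition to read how far each mRNA was loaded on polyribosomes relative to the other mRNAs. JUND, the steadily expressed AP-1 subunit, was called lower in polysome RNA in all 4 conditions. ATF3 was called higher in both conditions of the control line, and in the knockdown line similar differences fell just short of a call. ZFP36 was called lower in both lines with IL-13. The called members were 2 of 36 in unstimulated control, 1 in unstimulated knockdown, 3 with IL-13 in control and 2 with IL-13 in knockdown. Of all genes, 40.1%, 38.5%, 39.3% and 39.3% were called in these comparisons, so the share of the 36 was below the background in each. These counts depend on the spread of each gene over all libraries, which includes unstimulated control replicate 1 in all 4 comparisons. Their fitted medians were 0.07, -0.10, -0.01 and -0.12, where the medians of all genes were -0.202, -0.193 and -0.233 in unstimulated control, IL-13 control and IL-13 knockdown and -0.2 in unstimulated knockdown. Without unstimulated control replicate 1 6, 5, 9 and 9 members were called, where 37.8%, 39.2%, 40.1% and 40.0% of all genes were.

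For JUND, the input libraries of unstimulated control, replicates 1 to 5, read 459, 173, 211, 187 and 165 CPM and the polysome libraries 142, 83.9, 71.6, 166 and 107 CPM. With IL-13 the control line read 250.3, 222, 164, 192 and 287 CPM in input and 115, 203, 94.4, 107 and 76.7 CPM in polysome RNA. All same-numbered pairs were lower in the polysome library. The unstimulated knockdown line read 217, 189.9, 220.1, 283 and 250.3 CPM in input and 119, 86.1, 116, 92.9 and 87.5 CPM in polysome RNA. With IL-13 it read 251, 263, 215, 255 and 183 CPM in input and 79.9, 119.5, 65.9, 117 and 108 CPM in polysome RNA. In the knockdown line no polysome library reached the lowest input library of its condition, and the share of all genes with such a separation was not counted. The log2 differences of JUND were -1.07 ± 0.25 (SE, edgeR adjusted p = 0.000794) in unstimulated control, -1.21 ± 0.26 (0.00021) in unstimulated knockdown, -0.90 ± 0.25 (0.00409) in control with IL-13 and -1.25 ± 0.26 (0.00013) in knockdown with IL-13. They were called in all 40 fits without 1 library. Over the 20 same-numbered pairs the log2 ratio for JUND had a median of -1.12 and ran from -1.90 to -0.12, with unstimulated control replicate 1 at -1.69. Here and below the pairs are by number only, since the labels do not say that both libraries came from 1 culture.

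ATF3 (ENSG00000162772.17) showed the opposite order. Its input libraries read 145, 20.4, 16.9, 13.8 and 22.2 CPM in unstimulated control and its polysome libraries 304, 34.5, 50.02, 45.8 and 59.4 CPM. With IL-13 the control line read 24.9, 23.9, 18.3, 26.8 and 21.1 CPM in input and 60.6, 52.4, 55.9, 46.4 and 42.4 CPM in polysome RNA. Each polysome library was above the input library of its number. The unstimulated knockdown line read 19.4, 24.8, 23.9, 24.4 and 23.7 CPM in input and 33.9, 66.2, 44.9, 61.4 and 34.2 CPM in polysome RNA. With IL-13 it read 20.3, 26.9, 24.5, 28.5 and 28.0 CPM in input and 61.2, 59.8, 50.6, 52.9 and 45.1 CPM in polysome RNA. The fractions did not overlap in these knockdown groups, and the share of all genes for which this held was not counted. The log2 differences of ATF3 were 1.17 ± 0.47 (SE, edgeR adjusted p = 0.0435) and 1.16 ± 0.47 (0.0467) in the control line, unstimulated and with IL-13, and 1.06 ± 0.47 (0.0736) and 1.08 ± 0.47 (0.0674) in the knockdown line. Leaving out 1 library ended the call in 5 of 10 fits for the unstimulated control (adjusted p from 2.99e-06 to 0.845) and in all 10 for control with IL-13 (0.0508 to 0.0944). Without both libraries of replicate 1 ATF3 was called in all 4 conditions, at 1.37 ± 0.20, 1.06 ± 0.18, 1.16 ± 0.18 and 1.07 ± 0.18, with edgeR adjusted p-values between 1.1e-06 and 1.03e-05. The pairwise log2 ratio for ATF3 had a median of 1.09, was above 0 in 20 of 20 pairs and was 1.06 in replicate 1.

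ZFP36, the decay factor, read 21.3, 15.3, 12.2, 20.4 and 19.4 CPM in control input with IL-13 and 7.91, 7.13, 7.85, 9.91 and 6.95 CPM in the polysome libraries. In the knockdown line with IL-13 it read 16.7, 21.0, 16.8, 14.9 and 22.7 CPM in input and 9.31, 13.4, 7.72, 9.98 and 0 CPM in polysome RNA, the last in a library under 5000000 counts. Within each line all polysome libraries with IL-13 were below all input libraries with IL-13. How many of all genes were separated in this way was not counted. Unstimulated, ZFP36 read 44.8, 19.2, 17.2, 13.5 and 18.9 CPM in control input and 33.6, 10.1, 8.44, 12.8 and 12.5 CPM in polysome RNA. The unstimulated knockdown line read 14.7, 25.2, 17.7, 17.1 and 18.8 CPM in input and 14.2, 12.0, 11.8, 17.8 and 5.38 CPM in polysome RNA. Apart from replicate 1, the unstimulated control polysome libraries (8.44 to 12.8 CPM) were also all below the input libraries (13.5 to 19.2 CPM). The unstimulated knockdown fractions overlapped. The log2 differences of ZFP36 were -1.15 ± 0.39 (SE, edgeR adjusted p = 0.0176) in control and -1.11 ± 0.39 (0.022) in knockdown with IL-13, against -0.56 (0.267) and -0.58 (0.256) without IL-13. Both calls held in 20 of 20 fits without 1 library. The shift of the IL-13 effect was not called in either line, so a difference between the conditions was not shown.

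Among the other members, MAFF (0.94), PHLDA1 (0.72), IER2 (0.67), FOSL1 (0.51) and DUSP5 (0.49) had the next highest medians of the pairwise log2 ratio, beside KLF4 (0.57), and EGR1 (-1.01), NR4A2 (-0.84), CCN1 (-0.81) and JUN (-0.68) had low ones. In all, 15 medians were above 0, 20 were below and that of EGR3 was 0, while the median of all genes ran from -0.36 to -0.06 over the pairs. Without replicate 1, MAFF, IER2 and PHLDA1 were called higher in polysome RNA in all 4 conditions, with edgeR log2 differences of 0.84 to 1.12 for MAFF, 0.71 to 0.86 for IER2 and 0.63 to 0.78 for PHLDA1. In addition DUSP5 was called higher with IL-13 in control and ERRFI1 in knockdown. JUN was called lower in unstimulated control and in knockdown with IL-13, EGR1 and KLF10 in control with IL-13, and NR4A1 in knockdown with IL-13. In replicate 1, where the levels were high in both fractions, the ratio of EGR1 was -0.64 and that of CCN1 0.08, each inside the range of the other pairs.

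**Figure D4:**
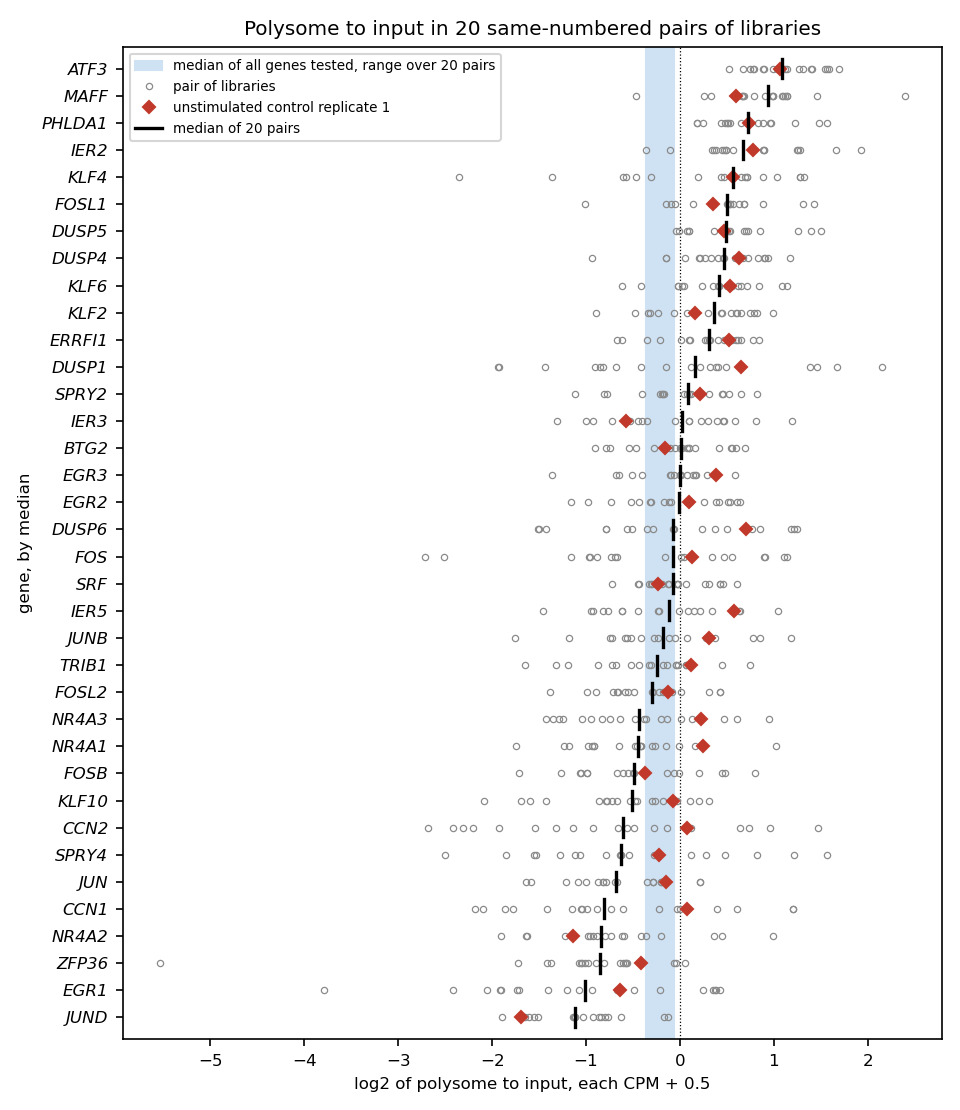
Log2 ratio of polysome to input (each CPM plus 0.5) for the 36 genes in 20 same-numbered pairs of libraries, with the median as a black bar, unstimulated control replicate 1 as a red diamond and the range of the all-gene median as a blue band. ATF3 and PHLDA1 are above 0 in all 20 pairs and JUND is below 0 in all 20.

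The surrounding pathways were read in the same 4 comparisons, named in the order unstimulated control, unstimulated knockdown, IL-13 control and IL-13 knockdown. Called higher in polysome RNA were 17.4%, 16.4%, 16.7% and 16.0% of all genes, and called lower were 22.8%, 22.0%, 22.6% and 23.3%. Of 30 tested genes of EGF receptor, RAS and ERK signalling, 8, 7, 8 and 7 were called higher and 6, 3, 4 and 6 lower. The receptor gene EGFR was lower by 2.38 to 2.55 on the log2 scale (-2.50 in unstimulated control), and ELK1, the partner of SRF, had -1.38 there, while the adaptor GRB2 was higher at 1.39. RPS6KA5, a kinase downstream of ERK, was called lower in 3 of the 4. Of 11 MRTF, YAP and TEAD genes, 4, 4, 4 and 3 were called higher and 5, 4, 4 and 5 lower, with MRTFB at -1.90, ROCK2 at -1.90, ROCK1 at -1.29 and RHOA at 1.38 in unstimulated control. Of 24 other primary response genes, 5 were called higher and 2 lower in each, among them THBS1 at -2.82, ID1 at 1.22, GADD45B at 1.44 and GADD45A at 1.01. Of 14 genes of AU-rich mRNA decay, 3 were called higher in each and 4, 3, 3 and 4 lower, with CNOT1 at -2.12, TNRC6A at -1.80, KHSRP at -1.53 and ELAVL1, which stabilises such mRNAs, at 1.35. In the IL-13 and knockdown comparisons of 40 libraries edgeR called 0 genes of these lists.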

How the data were processed

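Per the labels' protocols, RNA of 40 samples was selected by polyA and made into stranded paired-end libraries. The submitters' processing notes name MultiQC, Trimmomatic, Salmon and DESeq2 without versions, and the genome build and annotation are not given in the sources used here. The authors' table holds an estimated count and a TPM value per gene and library, per the file headers. The deposited TPM sum to 82.3% to 85.9% of a full set per library, and served only to compare levels between genes. The design had assumed counts, so the estimated counts were rounded. Of 62263 genes 62246 matched a symbol by unversioned Ensembl identifier.

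The filter filterByExpr, given the 8 groups, left 16735 genes, which held 99.91% or more of each library's counts. CPM were scaled by TMM. The quasi-likelihood test of edgeR 4.0.16 (R 4.3.3) gave 18 comparisons from 1 fit to the 40 libraries, with a mean for each group and 32 residual degrees of freedom. Its two-sided p-values were adjusted across the 16735 genes by Benjamini-Hochberg, and an adjusted p below 0.05 counted as a call. Pairwise polysome ratios used a pseudocount of 0.5 CPM, and ratios to the next library used CPM plus 1. The model was tested on simulated data. The lowest chi-square per degree of freedom over the 80 pairs of replicates within groups was 16.2, so none of these pairs were copies.

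Alternatives were the Wald test of DESeq2 1.42.0, DESeq2 size factors, no filter, only the libraries compared, the libraries of at least 5000000 counts, replicate blocks, and leaving out unstimulated control replicate 1 or each library in turn. The fits that combine 38 libraries with another change were chosen after seeing the data. The members, the lists and the alternatives were chosen with earlier results of these data known. By rule, values were given for members called by IL-13, knockdown or a shift, the 8 highest above the next library in unstimulated control replicate 1, the 6 of highest TPM, and those called with the 3 largest polysome differences in each direction. The text gives every library for KLF2, FOSL1, JUND, ATF3 and ZFP36, and ranges for the rest, which the plot of levels shows in full. KLF2 and other members outside this rule were named after their values were seen. Of each pathway list, up to 4 called genes of largest difference were named.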

Additional observations from a re-analysis of the deposited data

Results flagged for a closer look

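Dixon's test for a value far from the rest of its group of 5 (critical value 0.71) was applied to 15 members in each of the 8 groups, 120 group values in all, of which it marked 34. Of the 34, 27 were unstimulated control replicate 1. Since 8 of the 15 members were chosen for their excess in that replicate, this count is a description and no test. These were, in polysome RNA and then input, FOSB (87.8 and 113 CPM), EGR3 (54.5 and 41.7), NR4A1 (149 and 126), SPRY4 (37.8 and 44.3), DUSP6 (42.2 and 25.7), CCN2 (1691.7 and 1610.0), IER3 (508 and 758), DUSP5 (637 and 461), CCN1 (1386.5 and 1313.5), FOSL1 (446.7 and 349.9), ATF3 (304 and 145), ZFP36 (33.6 and 44.8) and KLF2 (30.9 and 27.5), with JUND in input only (459).

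The other 7 came from 90 group values, where chance, at about 1 in 20, gives 4.5. In polysome RNA they were EGR3 in IL-13 knockdown replicate 4 (0.547 CPM, next 0.150), DUSP5 in IL-13 control replicate 2 (60.6, next 32.1) and in unstimulated knockdown replicate 3 (46.6, next 31.7), and FOSL1 in IL-13 knockdown replicate 5 (57.2, next 80.1). In input they were SPRY4 in IL-13 control replicate 5 (0, next 0.810), ATF3 in unstimulated knockdown replicate 1 (19.4, next 23.7) and KLF2 in unstimulated knockdown replicate 5 (2.24, next 3.33).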

How the results depend on the processing

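Of 152 counts of called members under another setting, 119 stayed within 1.5 times the count with 40 libraries, with 0 in both taken as the same. In 14 of the 18 comparisons 0 were called with 40 libraries, so most of the 119 are 0 against 0. They say little about the polysome counts below. Leaving out 1 library left 0 called in each of the 14 IL-13, knockdown, shift and difference comparisons (0 to 0). For polysome against input it gave 1 to 21 in unstimulated control (21 without input replicate 1, 17 without polysome replicate 1), 1 to 2 in unstimulated knockdown, 2 to 2 in IL-13 control and 2 to 3 in IL-13 knockdown, while 34.1% to 39.6% of all genes were called in these fits. Without both libraries of unstimulated control replicate 1 the counts were 6, 5, 9 and 9 in that order, and 1 (KLF2) for IL-13 in knockdown input and in knockdown polysome RNA. DESeq2 on those 38 libraries gave 8, 6, 9 and 13 (35.2% to 39.1% of all genes), 1 in each of the 4 IL-13 comparisons and 1 for the knockdown with IL-13 in polysome RNA. DESeq2 on 40 libraries gave 2 in unstimulated knockdown polysome against input (37.6%), 1 for IL-13 in control polysome RNA and 2 for the knockdown in unstimulated polysome RNA. With only the libraries compared the polysome counts were 1, 8, 6 and 11 (37.6% to 46.8% of all genes), and that for IL-13 in knockdown input was 1 (0.128% of all), with 31 to 34 members tested. No filter gave 1 in unstimulated control (16.8% of all genes), and libraries of at least 5000000 counts gave 2 in unstimulated knockdown (35.4%).

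The replicate numbers did not pair the samples throughout. Deviations of same-numbered input and polysome libraries correlated from -0.487 to 0.621 (median 0.0145), with 9 of 20 over 0.1. The highest were in unstimulated control, at 0.586 for replicate 1, 0.621 for replicate 3 and 0.46 for replicate 5. Correlations of same-numbered libraries across groups exceeded 0.1 in 12 of 40 pairs. With the input and polysome library of a number as a block, the polysome counts were 8, 5, 9 and 9 (36.7% to 39.0% of all genes), and 5, 4, 9 and 9 without unstimulated control replicate 1 (34.7% to 37.1%). ATF3 was called in the knockdown line with that block, at 1.01 (edgeR adjusted p = 0.000139) unstimulated and 1.08 (5.8e-05) with IL-13. That block moved the median of all genes to between -0.33 and -0.28. With the number as a block, 0 members were called in the IL-13 and knockdown comparisons, and the FOSL1 knockdown difference turned from -0.42 to 0.013 in unstimulated input and from -0.44 to 0.13 in polysome RNA.

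The FOSL1 difference also turned without unstimulated control replicate 1, to 0.92 in input and 0.80 in polysome RNA (DESeq2 0.93 and 0.78). It ran from -0.67 to 0.92 in input and from -0.67 to 0.80 in polysome RNA over the fits without 1 library, and from 0.75 to 1.07 and 0.69 to 1.06 around the 38 libraries. KLF2 in control input ran from -0.052 to 1.27 with IL-13 over the fits without 1 library and from 1.16 to 1.44 around the 38. The cause was not tested. Depth limits EGR2, EGR3, NR4A2, SPRY4 and DUSP6, which held few counts outside that replicate.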
